A study of Mus musculus with 54 samples.

Results

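The UGT, SULT and GST genes encode the main conjugating enzymes of phase II detoxification, and 64 of the 54356 genes listed for the hearts and livers were protein-coding genes of these families by name. Of these, 21 were UDP-glucuronosyltransferases (UGT; Ugt1, Ugt2 and Ugt3 genes), 21 cytosolic sulfotransferases (SULT) and 22 cytosolic or mitochondrial glutathione S-transferases (GST). They lie on 12 chromosomes. The name alone chose them, not their level or any comparison.

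Phase II enzymes join a polar group to a foreign or endogenous compound, which makes it water soluble and ready for export into bile or urine. UGT enzymes sit in the membrane of the endoplasmic reticulum and transfer glucuronic acid from UDP-glucuronic acid, SULT enzymes transfer a sulfonate group from 3'-phosphoadenosine 5'-phosphosulfate (PAPS), and GST enzymes add glutathione to electrophiles, among them the aldehydes that arise when lipids are oxidised. The hepatocyte is the main site of all 3 reactions, and the substrates include bilirubin, bile acids, steroid and thyroid hormones and drugs.

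RNA-seq was carried out on total RNA from the hearts and livers of 9 male C57BL/6 mice, 3 wild type (Mrps12+/+), 3 homozygous for an error-prone mutation of the mitochondrial ribosomal protein MRPS12 (Mrps12ep/ep) and 3 homozygous for a hyper-accurate mutation of it (Mrps12ha/ha). All were 20 weeks old and had been fed a high-fat diet with 42% of its energy from fat, so that no comparison here concerns the diet. Wild-type and homozygous mice were matched by age and litter, and both mutants were compared with the same 3 wild-type mice. Values are the deposited normalised counts, 1 column per mouse and tissue, each taken as the pool of 3 technical libraries; only the 3 mice of a group are replicates, and errors are SD with n = 3 mice unless stated.

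Hearts held 11202961 to 51484404 reads on genes and livers 21238036 to 81521081. The tissues matched their labels: 19 hepatocyte markers summed to 7876748 to 9453421 normalised counts in the livers and 2584 to 24565.5 in the hearts, and 8 cardiomyocyte markers to 2127906 to 3665316 in the hearts and 46.3 to 8224 in the livers. Some samples stood apart. Adipocyte markers summed to 15098 in Mrps12+/+ heart 3 against 8.0 to 1968 in the other hearts. Cardiomyocyte markers summed to 8224 in the liver of Mrps12ha/ha mouse 3 against 46.3 to 505 in the other livers. Mrps12ha/ha heart 2 had the fewest reads of all samples and the lowest array weight of the hearts (0.167, where 1 is average), and the red-cell markers of Mrps12ha/ha heart 3 summed to 1414675 against 92003 to 465105 in the other hearts. The liver of Mrps12+/+ mouse 3 had acute phase genes at 2142622 against 263226 to 328968 in the other livers, and those of Mrps12+/+ mice 1 and 2 had skeletal muscle markers at 21292 and 25712 against 28.9 to 216 in the rest.

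Reads of near-identical members could not be told apart with certainty. The 9 Ugt1a genes share their last exons, and 58.5% to 100% of the 31-base words of their transcripts were shared with another Ugt1a gene. Gstp1 and Gstp2 shared 67.5% and 69.6% of their words with each other, Gsta1 and Gsta2 55.5% and 55.8%, and Ugt2b5 and Ugt2b38 44.9% and 44.1%. In 14 members no word was shared with any gene, among them Gsta4, Gstm5, Gsto1, Gsto2, Sult1b1, Sult1d1, Sult1e1 and Sult2a8.

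In the liver 45 of the 64 members had a mean of at least 10 normalised counts, which was the minimum for testing: 17 UGT, 8 SULT and 20 GST genes. GST genes held 0.603% ± 0.09 of all normalised counts of a liver (mean ± SD of 9 livers), UGT genes 0.317% ± 0.028 and SULT genes 0.102% ± 0.017. Levels between genes were compared as mean normalised counts per kilobase of coding length. On this scale the order was led by Gstm1, a mu-class enzyme, at 119878, and Gsta3, an alpha-class enzyme known for conjugating aflatoxin epoxide in mice, at 114119. Gstp1, the pi-class enzyme, followed with 79011 and Gstz1, which isomerises maleylacetoacetate in tyrosine breakdown, with 64789. These 4 genes stood above every SULT and UGT gene. The spread of the 9 livers, 64822 to 115765 normalised counts for Gstm1 and 46964 to 89718 for Gsta3, covered the difference between the first and the second gene.

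Sult2a8, a bile acid sulfotransferase of mouse liver, was the highest SULT gene at 27880.3 normalised counts per kilobase, with 12478 to 35944 normalised counts over the 9 livers. Sult1a1, the phenol sulfotransferase, had 24415 per kilobase and Sult1d1, which acts on catecholamines, 5542. The remaining SULT genes were far lower. Sult1b1, which acts on thyroid hormones, had 1769 per kilobase, Sult1c2 471 and Sult1e1, the oestrogen sulfotransferase, 29.0. The hydroxysteroid sulfotransferase genes Sult2a1 to Sult2a6 and the genes Sult3a1 and Sult3a2, known for higher levels in female than in male mouse liver, had at most 10 reads in any liver. The livers were those of males: Xist did not exceed 17.2 normalised counts in any, whereas the Y-linked Ddx3y had at least 1499.

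Among UGT genes Ugt2b5 (18659 per kilobase), Ugt2b36 (16549.6) and Ugt1a1 (12964) were highest, and Ugt2b1 and Ugt2b34 followed with 11053 and 10477. Ugt2b enzymes glucuronidate steroids and bile acids, and Ugt1a1 is the enzyme that glucuronidates bilirubin. The Ugt3 genes, whose products use other UDP-sugars, were at 9929.5 per kilobase (Ugt3a2) and 3415 (Ugt3a1). Ugt2b38 had 597.5 per kilobase, and Ugt2a1 and Ugt1a8 had no read in any liver, which allows up to 3 reads in each library by counting error alone. With Sult1c1, Sult2a3 and Sult2a4 they were the 5 members with no read in any liver.

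**Figure D1:**
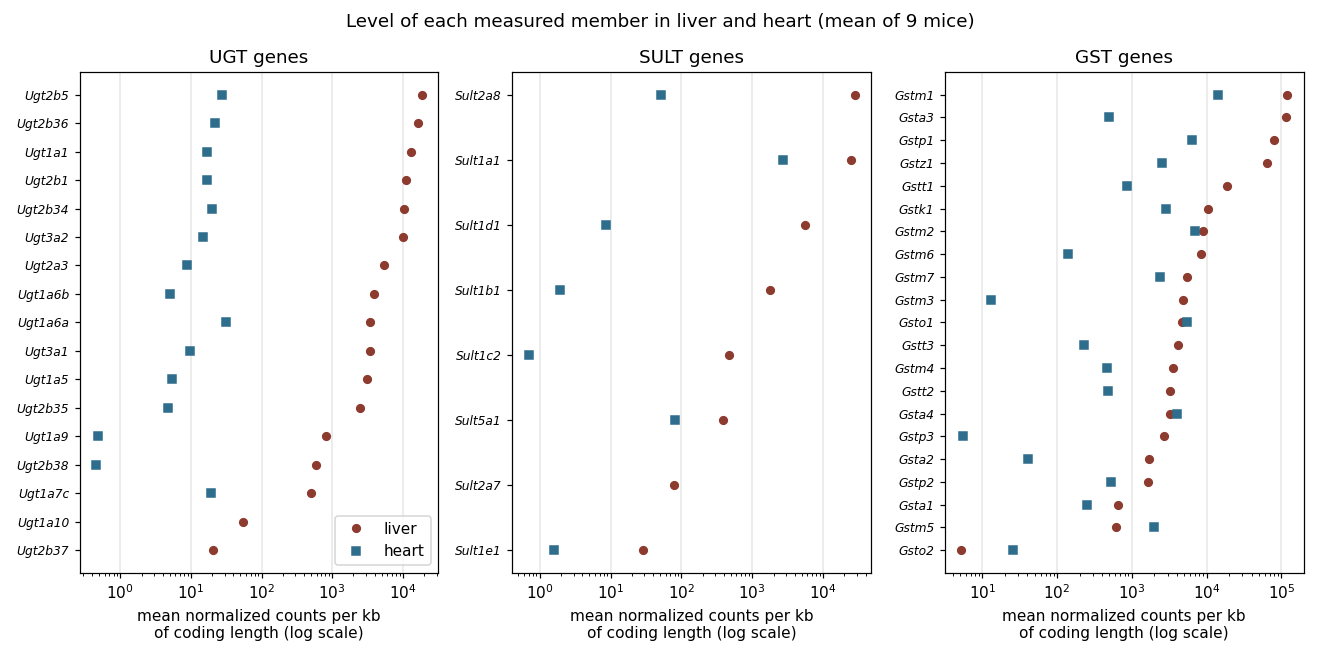
Mean normalised counts per kilobase of coding length (log scale) of each member that reached a mean of 10 in at least 1 tissue, over the 9 livers (circles) and the 9 hearts (squares); a gene at 0 has no point. Circles lie to the right of squares for all UGT and SULT genes shown, whereas for Gsto2, Gstm5, Gsta4 and Gsto1 the square lies to the right of the circle.

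In the heart 32 members reached a mean of 10 normalised counts, 19 of them GST genes, with 10 UGT and 3 SULT genes. All but Gsto2 also reached it in the liver. GST genes held 0.107% ± 0.006 of the normalised counts of a heart, which was 92.4% of the counts of all members, and the mu-class Gstm genes alone held 49.2% of them. Per kilobase the order was led by Gstm1 at 14420.1, Gstm2 at 7099 and Gstp1 at 6419, followed by Gsto1, a thioltransferase of the omega class, at 5505 and Gsta4, which conjugates the lipid peroxidation product 4-hydroxynonenal, at 4053. Sult1a1 was the only SULT gene of the first 10, at 2694 per kilobase, ahead of Sult5a1 at 81.4 and Sult2a8 at 51.1. The highest UGT genes of the heart, Ugt1a6a, Ugt2b5 and Ugt2b36, did not exceed 31.6 per kilobase. In all hearts 15 members had no read, among them 7 Sult2a genes and both Sult3a genes.

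Heart and liver levels were set side by side as CPM, the reads of a gene scaled to the total of its library, with no test because the tissues were normalised separately. Gsto2, which reduces dehydroascorbate, was higher in the heart (0.576 against 0.0748 CPM, a ratio of 7.7). Gstm5 had 41.3 against 8.01 (5.16), Gsta4 83.1 against 42 (1.98) and Gsto1 121 against 65.3 (1.85). Gstm2 was near equal, with 143 against 114 (1.25). For Gsta4 each of the 9 hearts lay at 167% to 222% of the mean liver level. At the other end Gstm6 had a ratio of 0.0266, Gsta3 0.00679 and Ugt1a6a 0.0148.

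Among the members tested in the heart 9 were at less than 0.5% of their liver level: Ugt1a1, Ugt2a3, Ugt2b1, Ugt2b34, Ugt2b36, Ugt2b5, Ugt3a1, Ugt3a2 and Sult2a8, a group formed after their values were seen. Ugt2b5 illustrates their spread between hearts of 1 genotype. It stood at 112, 26.8 and 56.6 normalised counts in the Mrps12+/+ hearts 1 to 3, 75.3, 1.7 and 0.9 in the Mrps12ep/ep hearts and 9.2, 90.6 and 15.9 in the Mrps12ha/ha hearts. Mouse 1 was high in Mrps12+/+ and Mrps12ep/ep, mouse 2 in Mrps12ha/ha, and the genotypes overlapped. Expressed as a share of the mean liver level in CPM, the median of the 9 members was 0.579%, 0.146% and 0.264% in Mrps12+/+, 0.586%, 0.00612% and 0.0166% in Mrps12ep/ep and 0.0557%, 0.486% and 0.115% in Mrps12ha/ha hearts.

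The summed markers of hepatocytes varied over the hearts with most of these members. All 19 hepatocyte genes found were above 0 in at least 1 heart. Albumin (Alb) stood at 0.389%, 0.111% and 0.165% of its liver level in the Mrps12+/+ hearts, 0.299%, 0.0029% and 0.0228% in the Mrps12ep/ep and 0.0562%, 0.379% and 0.102% in the Mrps12ha/ha hearts. The median of the 19 markers was 0.42%, 0.106% and 0.183% in the Mrps12+/+ hearts, 0.362%, 0.00495% and 0.0228% in the Mrps12ep/ep and 0.0648%, 0.434% and 0.125% in the Mrps12ha/ha hearts. Over the 9 hearts Pearson's r with the summed hepatocyte markers, on log2 CPM, was 0.98 for Ugt2b36, 0.97 for Ugt2b5, 0.96 for Ugt3a2, 0.95 for Ugt1a1 and 0.84 for Sult2a8. Ahsg and Trf did not follow the other markers. Rbp4 and Tat also departed in Mrps12ep/ep heart 2, at 0.129% and 0.125% of their liver level against a marker median of 0.00495%. Ahsg was highest in Mrps12ep/ep heart 2, at 0.431%, 0.969% and 0.242% of its liver level in the Mrps12ep/ep hearts, and Ahsg and Trf made up 2199.6 and 1756.5 of the 4318.5 summed normalised counts of the markers in that heart. Without both, an alternative chosen after the data were seen, r was 0.90 to 0.96 for these 5 genes. These are descriptions over 9 hearts of 3 genotypes, and both measures come from the same library. Whether liver RNA was the source of these UGT reads was not tested. Gsta3, at 0.00679 of its liver level in CPM, had an r of 0.83, whereas for the abundant heart genes Gstm1, Gstm2, Gstk1, Gsta4 and Sult1a1 r lay between -0.34 and 0.26, with 0.50 for Gsto1 and 0.63 for Gstz1. In bulk tissue fewer cells of a type and less RNA per cell cannot be told apart.

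**Figure D2:**
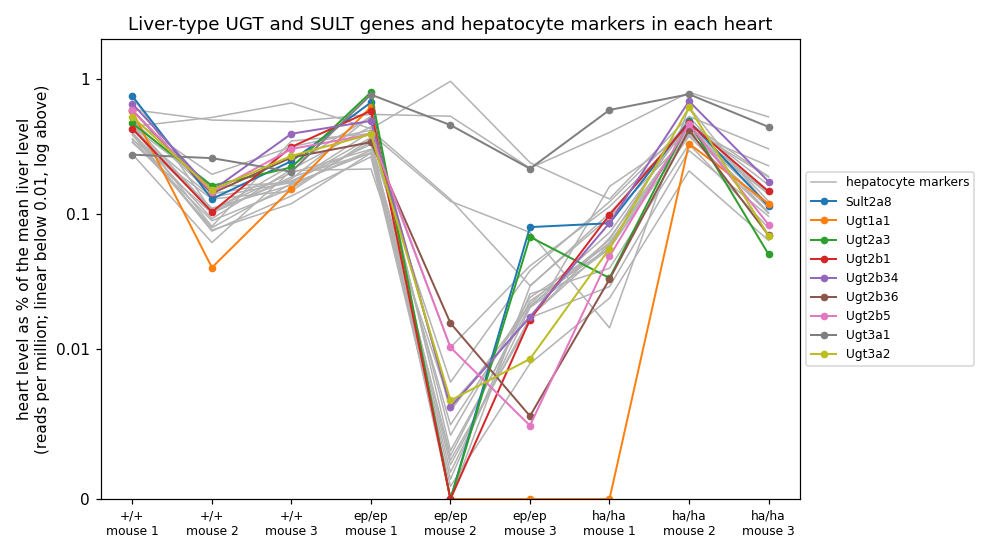
Level of 9 UGT and SULT genes (coloured points, lines join 1 gene) and of 19 hepatocyte markers (grey lines) in each of the 9 hearts, as a percentage of the gene's mean liver level in CPM; the axis is linear below 0.01% and logarithmic above. Most coloured and grey lines move together, high in Mrps12+/+ mouse 1, Mrps12ep/ep mouse 1 and Mrps12ha/ha mouse 2 and lowest in Mrps12ep/ep mice 2 and 3. Ugt3a1 and the markers Ahsg and Trf depart from them, as do Rbp4 and Tat in Mrps12ep/ep mouse 2.

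Ugt3a1 and a pair of Ugt1a genes did not share this course. Ugt3a1 had 9.5, 8.7 and 6.9 normalised counts in Mrps12+/+, 26.7, 13.9 and 7.3 in Mrps12ep/ep and 20.2, 27.2 and 15.2 in Mrps12ha/ha hearts, with an r of 0.33. For Ugt1a6a and Ugt1a7c r was -0.43 and -0.36. Ugt1a6a, a phenol-conjugating enzyme, was highest in the Mrps12ep/ep heart 2 at 82.9 normalised counts, the heart in which Ugt2b5 had 1.7.

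Error-prone livers were compared with wild type to ask which conjugating enzymes differed on the high-fat diet. No member passed an adjusted p of 0.05 in limma or limma-voom (0.00653% of the 15314 genes did in limma), and 11 of 45 members had an unadjusted p under 0.05, against 9.74% of all genes. Members lay higher more often than lower: 31 of 45 had a log2 fold change above 0, against 48.9% of all genes, with a median of 0.19 against -0.007 over all genes. In 7 members all 3 Mrps12ep/ep livers lay above all 3 Mrps12+/+ livers (6.49% of all genes did so), namely Gsta4, Gstt3, Gstp1, Ugt2a3, Ugt2b36, Gsto1 and Gstz1. Ugt1a5 was the only member with all 3 below (6.28% of all genes). Without Mrps12+/+ mouse 3 the number with an unadjusted p under 0.05 was 6 (6.49% of all genes), and without Mrps12ep/ep mouse 3 it was 6 (6.58%).

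Gsta2 and Gsta4, alpha-class genes on chromosome 9, had the highest log2 fold changes. Gsta4 had 2144, 1438 and 1158 normalised counts in Mrps12+/+, 3209, 3114 and 3038 in Mrps12ep/ep and 2063.5, 1918 and 1435 in Mrps12ha/ha livers. The Mrps12ep/ep livers lay close together and above the 6 others. The means were 1580.0 ± 508 and 3121 ± 85.7, a log2 fold change of 1.03 (SE 0.21, adjusted p = 0.277 in limma, 0.0315 to 0.719 over the alternatives). Without Mrps12+/+ mouse 1, whose skeletal muscle markers were high like those of mouse 2, it passed the threshold with 1.27 (adjusted p = 0.0315 in limma). In that fit 0.17% of all genes passed. Gsta2 had 1424, 491 and 218 in Mrps12+/+ and 2456, 1419 and 1997.5 in Mrps12ep/ep livers, with a log2 fold change of 1.84 (SE 0.57, adjusted p = 0.434 in limma). The highest wild-type liver reached the lowest Mrps12ep/ep liver, and reads of Gsta2 can be shared with Gsta1. Without Mrps12+/+ mouse 3 the log2 fold change was 1.19 for Gsta2 and 0.83 for Gsta4.

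Gstp1 had 45756, 39491.5 and 24807 normalised counts in the Mrps12+/+ and 57837, 55979 and 58675 in the Mrps12ep/ep livers (log2 fold change 0.69, SE 0.27, adjusted p = 0.471 in limma). Gstt3, of the theta class, had 1974, 2606 and 1061 in Mrps12+/+ against 2886.5, 3506 and 2849.8 in Mrps12ep/ep livers (0.80, SE 0.29). In both genes Mrps12+/+ mouse 3, the liver with high acute phase genes, was lowest. Without it the log2 fold changes were 0.44 and 0.44, the number of members with all Mrps12ep/ep livers above was 7 of 45 (9.02% of all genes), and the median of the members was 0.13. The part of the acute phase in these differences was not tested. Summed periportal markers also lay higher in Mrps12ep/ep than in Mrps12+/+ livers (541422 to 620057 against 284982.5 to 499980 normalised counts). So did male-biased liver genes (688772.5 to 712874 against 500117.5 to 646939) and hepatocyte markers (8810891 to 9453421 against 7876748 to 8621760). Single genes such as Ctsc and Apoa1 overlapped, as did the other marker lists. Their part was not tested either. Ugt2b36 and Ugt2a3, which take part in steroid and bile acid glucuronidation, had log2 fold changes of 0.43 and 0.51 (adjusted p = 0.438 and 0.481 in limma), and of 0.29 and 0.27 without Mrps12+/+ mouse 3.

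In Mrps12ha/ha livers 11 of 45 members lay above wild type in all 3 mice, against 10.0% of all genes, and none below, against 9.81%. They were Gstt3, Ugt1a7c, Sult1c2, Gstt2, Gsta3, Ugt2a3, Gstm6, Ugt2b36, Gsto1, Gstz1 and Ugt1a6b. No member passed the adjusted threshold in limma or limma-voom (0.00653% of all genes did in limma), 7 had an unadjusted p under 0.05, all of them higher, against 14.1% of all genes in either direction, and 32 of 45 had a log2 fold change above 0, against 47.5%. The median was 0.24 over the members and -0.017 over all genes. By family it was 0.45 for the 8 SULT, 0.27 for the 20 GST and 0.16 for the 17 UGT genes. Without Mrps12+/+ mouse 3 the median of all members was 0.12, 12 members lay above (14.3% of all genes) and 2 had an unadjusted p under 0.05 (11.8% of all genes).

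Gstt3, a theta-class gene, had the lowest p of the members. It stood at 1974, 2606 and 1061 normalised counts in Mrps12+/+ and 4617, 3163 and 4307 in Mrps12ha/ha livers. The lowest mutant liver exceeded the highest wild-type liver, and the fold was 2.26 (log2 fold change 1.18, SE 0.29, adjusted p = 0.15 in limma, 0.0587 to 0.376 over the alternatives, exact permutation p = 0.1, the smallest that 3 against 3 mice allow). Without Mrps12+/+ mouse 3 the log2 fold change was 0.81. Gstt2 had 1357, 2744 and 2521 in Mrps12+/+, 1472, 2433 and 2095 in Mrps12ep/ep and 3068, 3202 and 2756 in Mrps12ha/ha livers, so that the Mrps12ha/ha livers lay above the 6 others (0.51, SE 0.26, adjusted p = 0.422 in limma). Without Mrps12+/+ mouse 1 the log2 fold change of Gstt2 was 0.19. Skeletal muscle markers were high in the livers of both Mrps12+/+ mouse 1 and mouse 2 (21292 and 25712 normalised counts). These mice had the lowest and the highest wild-type Gstt2. Gstt1, the other theta gene that reached the minimum, had 11027, 13770.0 and 10803 in Mrps12+/+ and 14961, 13223 and 15910.0 in Mrps12ha/ha livers, and these overlapped.

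Sult1c2 was even among the Mrps12ha/ha livers, at 507, 528 and 521 normalised counts, against 248, 494 and 385 in Mrps12+/+ and 317, 431 and 337 in Mrps12ep/ep livers (0.52, SE 0.23, adjusted p = 0.359 in limma). Mrps12+/+ mouse 1 was the lowest of these wild-type livers, and without it the value was 0.25. Mrps12+/+ mouse 2, whose muscle markers were also high, had the highest wild-type Sult1c2. The part of the muscle markers in Gstt2 and Sult1c2 was not tested. Sult1b1 had 1169.8, 1735 and 841 in Mrps12+/+ against 1683, 2316.5 and 1728 in Mrps12ha/ha livers (0.66, SE 0.25, adjusted p = 0.292 in limma) and overlapped in 1 wild-type liver. The abundant Gsta3 had 68849, 71104 and 46964 in Mrps12+/+ and 89718, 84249 and 83386.5 in Mrps12ha/ha livers (0.48, SE 0.18). Here too Mrps12+/+ mouse 3 was the lowest liver, and without it the value was 0.29. Gstm1, the most abundant member, had 84723, 75533 and 65836 against 112764, 64822 and 99497 (0.26, SE 0.23), and the Mrps12ha/ha livers spanned all wild-type values.

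**Figure D3:**
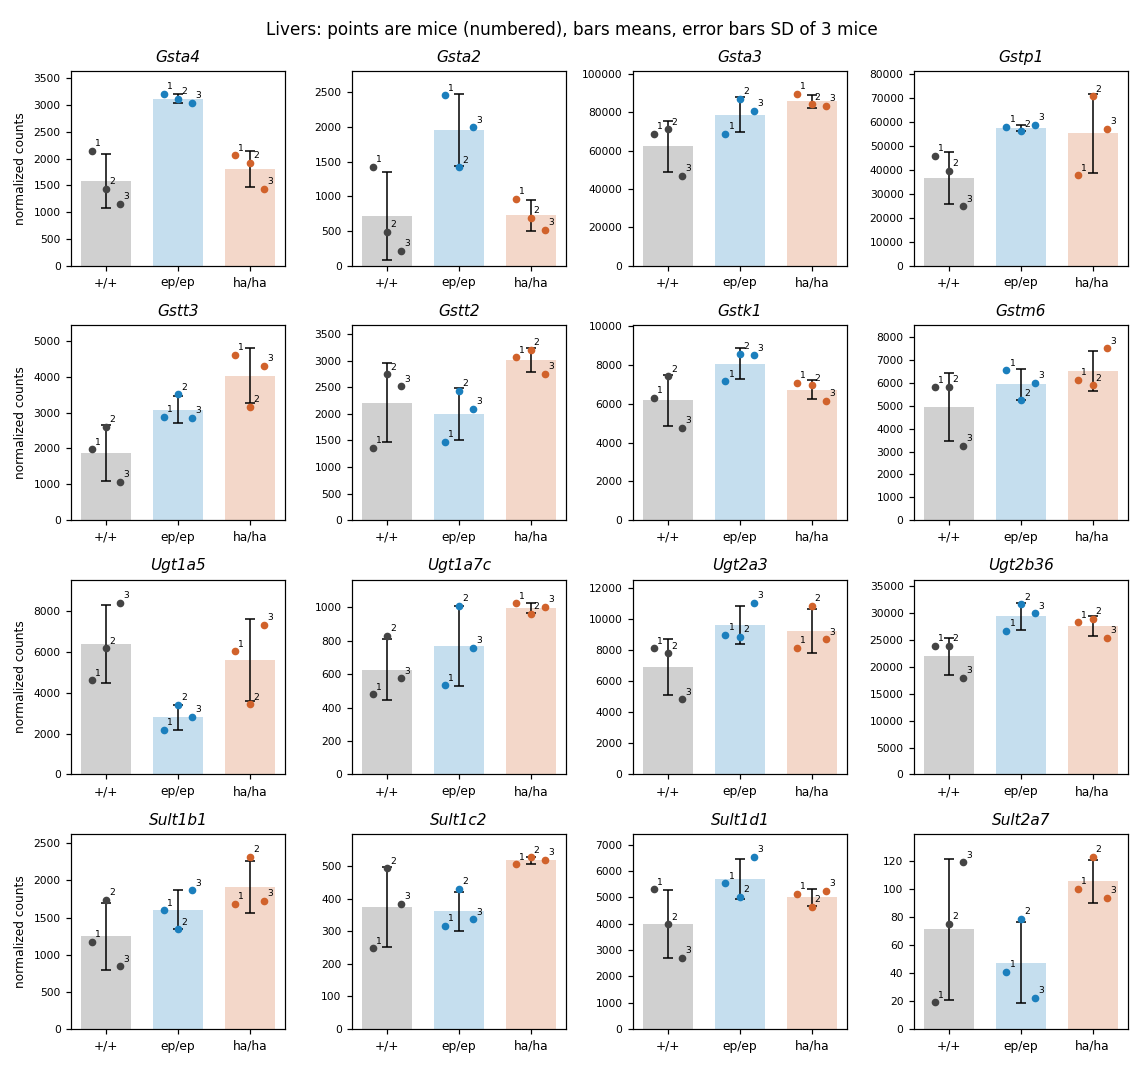
Normalised counts of 16 members in the livers of 3 Mrps12+/+, 3 Mrps12ep/ep and 3 Mrps12ha/ha mice; points are mice with their number, bars the mean and error bars the SD. Gsta4 is highest in the 3 Mrps12ep/ep livers and Gstt2 and Sult1c2 in the 3 Mrps12ha/ha livers, and Mrps12+/+ mouse 3 is the lowest wild-type point in most panels.

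Gsta1, whose reads can be shared with Gsta2, had 547, 268 and 735 normalised counts in Mrps12+/+, 458, 410.5 and 628 in Mrps12ep/ep and 471, 161 and 231 in Mrps12ha/ha livers, with overlap (-0.87 for Mrps12ha/ha against Mrps12+/+, SE 0.44). Sult1e1 had 35.0, 25.9 and 44.8 in Mrps12+/+, 22.7, 12.3 and 35.5 in Mrps12ep/ep and 14.3, 12.3 and 28.1 in Mrps12ha/ha livers, again with overlap (-0.97 for Mrps12ha/ha, SE 0.49). The mu-class Gstm3 spanned 1542 to 4720.4 over the 9 livers, with log2 fold changes of 0.20 in Mrps12ep/ep and -0.03 in Mrps12ha/ha mice (SE 0.40), and both changed sign when single mice were left out. For the bile acid sulfotransferase gene Sult2a8 they were 0.31 and 0.54 (SE 0.26), or 0.01 and 0.24 without Mrps12+/+ mouse 3, and the genotypes of both overlapped. Sult2b1, a cholesterol sulfotransferase of skin, had at most 4 reads in any liver.

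Between the mutants few liver members were separated. Mrps12ha/ha livers all lay above Mrps12ep/ep livers in 4 of 45 members (Sult2a7, Ugt1a5, Gstt2 and Sult1c2; 8.82% of all genes) and below in 3 (Gsta2, Gsta4 and Gstk1; 9.01%). No member passed the adjusted threshold in limma or limma-voom (0.00653% of all genes did in limma), 5 had an unadjusted p under 0.05, against 8.62% of all genes, 25 had a log2 fold change above 0, against 49.7%, and the median was 0.01. Gsta4 was lower in Mrps12ha/ha by 1.75-fold (log2 fold change -0.81, SE 0.21, adjusted p = 0.417 in limma). Gsta2 had 966, 691 and 521 normalised counts in Mrps12ha/ha livers, all below the Mrps12ep/ep values (-1.44, SE 0.57, adjusted p = 0.546 in limma). Gstk1, an enzyme of mitochondria and peroxisomes, had 7157, 8571 and 8494 in Mrps12ep/ep and 7090.1, 6951 and 6169 in Mrps12ha/ha livers (-0.26, SE 0.16). Sult2a7, at 40.8, 78.8 and 22.2 against 100, 123 and 93.6, did not overlap either (1.31, SE 0.65, adjusted p = 0.634 in limma).

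The Ugt1a genes lie in 1 locus on chromosome 1, in which separate promoters and first exons are joined to shared last exons. Sharing of reads between them is uncertain, above all for Ugt1a6a, which had no word of its own: all of its words, and 85.1% of those of Ugt1a6b, were also found in Ugt1a7c. The promoters of the 5 genes described here are printed as the RefSeq sequence from 250 bases before to 50 bases after the start, on the plus strand of GRCm38.p6, at chr1:88070529-88070828 (Ugt1a9), chr1:88094751-88095050 (Ugt1a7c), chr1:88134559-88134858 (Ugt1a6a), chr1:88165762-88166061 (Ugt1a5) and chr1:88211709-88212008 (Ugt1a1). They are shown because these genes differed in their course over the mice while their transcripts share the last exons. Capitals mark GTTAAT or its reverse complement, the letters of 1 arm of the site of hepatocyte nuclear factor 1, in Ugt1a9, Ugt1a6a and Ugt1a1, and GCGTG on either strand, the core of the xenobiotic response element, in Ugt1a5; Ugt1a7c held neither.
Ugt1a9: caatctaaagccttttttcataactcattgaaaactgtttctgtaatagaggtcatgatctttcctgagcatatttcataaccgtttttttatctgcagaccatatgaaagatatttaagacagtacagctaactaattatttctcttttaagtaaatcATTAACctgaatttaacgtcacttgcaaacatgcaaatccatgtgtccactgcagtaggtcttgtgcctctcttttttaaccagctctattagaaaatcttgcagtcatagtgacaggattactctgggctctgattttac
Ugt1a7c: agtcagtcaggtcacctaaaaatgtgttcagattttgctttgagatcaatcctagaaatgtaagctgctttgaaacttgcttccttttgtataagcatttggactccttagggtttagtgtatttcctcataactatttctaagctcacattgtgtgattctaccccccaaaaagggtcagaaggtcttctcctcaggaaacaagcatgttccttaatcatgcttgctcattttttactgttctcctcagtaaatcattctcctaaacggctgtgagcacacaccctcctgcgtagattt
Ugt1a6a: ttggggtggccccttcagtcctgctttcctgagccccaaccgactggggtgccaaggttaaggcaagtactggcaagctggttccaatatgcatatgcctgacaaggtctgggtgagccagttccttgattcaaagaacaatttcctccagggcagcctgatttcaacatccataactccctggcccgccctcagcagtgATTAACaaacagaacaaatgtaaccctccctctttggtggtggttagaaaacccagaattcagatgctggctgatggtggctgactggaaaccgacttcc
Ugt1a5: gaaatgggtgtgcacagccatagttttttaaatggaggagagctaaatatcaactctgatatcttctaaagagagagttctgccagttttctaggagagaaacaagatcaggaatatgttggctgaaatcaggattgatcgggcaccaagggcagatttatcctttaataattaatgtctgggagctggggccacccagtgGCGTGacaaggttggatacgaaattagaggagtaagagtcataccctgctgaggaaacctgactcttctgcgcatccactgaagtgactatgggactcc
Ugt1a1: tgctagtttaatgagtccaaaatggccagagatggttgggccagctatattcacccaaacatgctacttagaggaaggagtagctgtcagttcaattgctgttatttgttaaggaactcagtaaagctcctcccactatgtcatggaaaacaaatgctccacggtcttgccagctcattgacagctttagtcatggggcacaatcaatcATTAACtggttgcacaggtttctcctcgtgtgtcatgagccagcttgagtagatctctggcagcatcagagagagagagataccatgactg
GTTAAT was found in 7.1% of the 32851 RefSeq promoters of this length and in 6 of 19 UGT, 7 of 17 SULT and 1 of 20 GST genes with a promoter in the table. GCGTG was found in 32.4% of all promoters and in 13 of 67 member promoters, which belong to 11 member genes. A match describes the letters only.

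Ugt1a5 had the largest log2 fold change of the UGT genes in the liver, in either direction. It had 4627, 6196.5 and 8437 normalised counts in Mrps12+/+, 2194, 3419 and 2839 in Mrps12ep/ep and 6038, 3436 and 7357 in Mrps12ha/ha livers. All Mrps12ep/ep livers lay below the 6 others, though only just below Mrps12ha/ha mouse 2. The log2 fold change of Mrps12ep/ep against Mrps12+/+ was -1.17 (SE 0.30, adjusted p = 0.384 in limma, 0.111 to 0.719 over the alternatives), and without Mrps12+/+ mouse 3, its highest wild-type liver, -0.95. Of the Ugt1a counts per kilobase Ugt1a5 made up 16.5% ± 2.7 in Mrps12+/+, 7.56% ± 0.47 in Mrps12ep/ep and 13.1% ± 4.4 in Mrps12ha/ha livers. Ugt1a1 made up 49% ± 4.3 in Mrps12+/+, 54.2% ± 2.3 in Mrps12ep/ep and 53.3% ± 3.2 in Mrps12ha/ha livers.

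Ugt1a1 itself had 14641, 20921.5 and 21935 normalised counts in Mrps12+/+, 17019, 24458 and 19522 in Mrps12ep/ep and 26033, 21819 and 20914 in Mrps12ha/ha livers, and the genotypes overlapped. Ugt1a9 had 1466, 1065 and 2705 in Mrps12+/+, 740.0, 927 and 1252 in Mrps12ep/ep and 1683, 605 and 1363 in Mrps12ha/ha livers, also with overlap. Ugt1a7c had 478.5, 828 and 575 in Mrps12+/+, 534, 1009 and 759 in Mrps12ep/ep and 1023, 961 and 1004 in Mrps12ha/ha livers. Its Mrps12ha/ha livers lay above all wild-type livers (log2 fold change 0.70, SE 0.25, adjusted p = 0.261 in limma), whereas in the hearts they lay below. Its heart values were 34.4, 34.6 and 31.4 in Mrps12+/+, 28.7, 75.4 and 36.3 in Mrps12ep/ep and 11, 6.0 and 22.1 in Mrps12ha/ha mice. All Mrps12ha/ha hearts lay below the 6 others (-1.47 against Mrps12+/+, SE 0.51, adjusted p = 0.213 in limma, and -1.82 against Mrps12ep/ep, SE 0.51, adjusted p = 0.236 in limma). In Mrps12ha/ha hearts 1 and 2, where 1 read was worth 1.8407 and 3.02 normalised counts, these values rest on few reads. Over the alternatives the log2 fold change against Mrps12+/+ was -1.91 to -0.87.

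**Figure D4:**
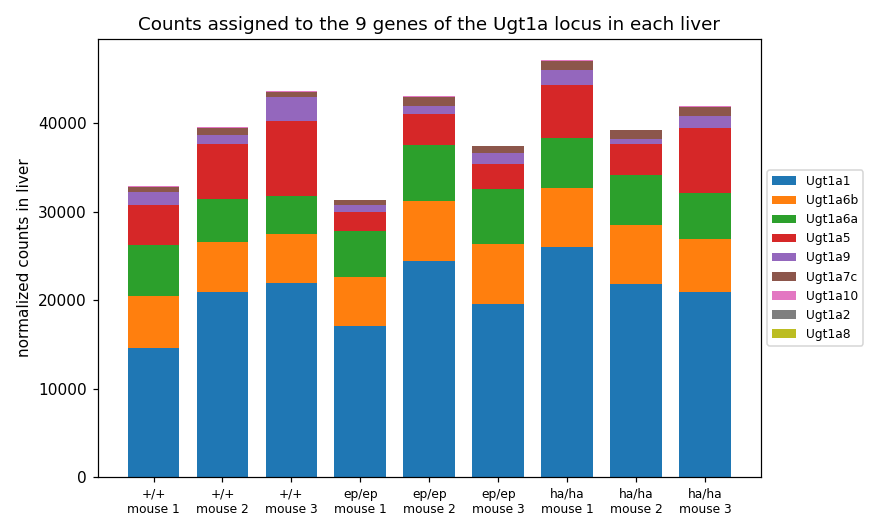
Normalised counts assigned to each gene of the Ugt1a locus, stacked, in each of the 9 livers (Ugt1a8 at 0). Ugt1a1 is the largest segment in every liver, and the Ugt1a5 segment is smallest in the 3 Mrps12ep/ep livers.

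In the heart the comparison of Mrps12ha/ha with Mrps12+/+ gave no member past the adjusted threshold in limma, as 0.0311% of the 16057 genes did, and 5 of 32 members had an unadjusted p under 0.05, against 19.7% of all genes. All Mrps12ha/ha hearts lay above wild type in 3 members (Gstt2, Gstp1 and Ugt3a1; 11.1% of all genes) and below in 2 (Ugt1a7c and Gstm6; 10.0%). These shares are near those of all genes. The calls changed with the fit: limma-voom on the recovered reads with quality weights, which change for every heart at once, called 7 members (against 33.9% of all genes), and limma without Mrps12ha/ha heart 2 called 6 (against 27%). Gstt2, Gstp1, Sult1a1, Gstm4 and Gstm7 were among both.

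Gstt2 had 191, 273 and 292 normalised counts in Mrps12+/+, 271, 237 and 257 in Mrps12ep/ep and 710.5, 347 and 541 in Mrps12ha/ha hearts. The Mrps12ha/ha hearts lay above the 6 others, and mouse 2 was nearest to them. The means of 252 ± 53.6 and 533 ± 182 differed 2.06-fold on the fitted scale (log2 fold change 1.04, SE 0.26, adjusted p = 0.191 in limma, 0.00403 to 0.54 over the alternatives), and without Mrps12ha/ha heart 2 the value was 1.32 (adjusted p = 0.00506 in limma). Gstp1 had 3390.3, 3739 and 3642 in Mrps12+/+ and 5581, 3745 and 6003 in Mrps12ha/ha hearts (0.48, SE 0.18, adjusted p = 0.221 in limma), with mouse 2 at the level of the highest wild-type heart. Without that heart it rose by 0.69 on the log2 scale (adjusted p = 0.00761 in limma).

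Sult1a1 and the mu-class genes Gstm1, Gstm4 and Gstm7 divided the Mrps12ha/ha hearts in the same way. Sult1a1 had 1985, 1918 and 2631 normalised counts in Mrps12+/+ and 3702, 2168 and 2985 in Mrps12ha/ha hearts, and Gstm1 8885, 9877 and 11228 against 12841, 10029.7 and 13199. Mice 1 and 3 lay above all wild-type hearts and mouse 2 among them. Gstm4 had 323, 339 and 326 against 239, 332 and 223, and Gstm7 1572, 1763 and 1782 against 1362, 1712 and 1239, so that mice 1 and 3 lay below wild type and mouse 2 within it. Hearts 1 and 3 also stood apart in markers of other cells. The 7 endothelial markers, all detected, summed to 48872, 30485 and 40571 normalised counts in Mrps12ha/ha against 30665, 27197 and 25219 in Mrps12+/+ hearts, and the 6 red-cell markers to 465105, 199531.5 and 1414675 against 116824, 92003 and 235988. The 8 cardiomyocyte markers summed to 3665316, 2930067.5 and 3279710 in Mrps12ha/ha against 2585243.5, 2778326 and 2473386 in Mrps12+/+ hearts, and so lay higher. Ryr2, the calcium release channel and 1 of these 8 genes, went the other way. It had 16285, 44622 and 19113 in Mrps12ha/ha against 47154, 51018 and 53594 in Mrps12+/+ hearts. The part of these differences in the values of the members was not tested. With all 3 hearts the log2 fold changes were 0.42 for Sult1a1, 0.26 for Gstm1, -0.33 for Gstm4 and -0.26 for Gstm7, with adjusted p of 0.273, 0.31, 0.282 and 0.313 in limma. Gstz1, with 1693, 1775 and 2082 against 1305, 1836 and 1349.9, was called by limma-voom (-0.45, adjusted p = 0.0301) but not by limma without Mrps12ha/ha heart 2.

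Gstm6 had 79.2, 128 and 129 normalised counts in Mrps12+/+, 71.3, 187 and 99.9 in Mrps12ep/ep and 71.8, 66.4 and 32.5 in Mrps12ha/ha hearts (-1.01 against Mrps12+/+, SE 0.42, adjusted p = 0.235 in limma). All Mrps12ha/ha hearts lay below wild type, and those of Mrps12ep/ep spanned both. It passed the threshold in limma-voom with -1.54 (adjusted p = 0.0162) and in limma with array weights with -1.46 (adjusted p = 0.0113). Of all genes 33.9% and 34.7% passed in these fits. Gstm6 and Ugt1a7c were highest in Mrps12ep/ep heart 2, whose atrial cardiomyocyte markers were also the highest, with 404786 normalised counts in sum against 3147 to 174235 in the other hearts. In Mrps12ha/ha hearts this list summed to 7418, 6623 and 13448, and in Mrps12+/+ hearts to 9781, 174235 and 128071, all 8 of its genes being detected. Its part in the values of Gstm6 and Ugt1a7c was not tested. Sult5a1 had 44.8, 98.6 and 89.3 in Mrps12+/+, 96.1, 117 and 61.8 in Mrps12ep/ep and 69.9, 3.0 and 58.8 in Mrps12ha/ha hearts, and the genotypes overlapped. Ugt3a1 had a log2 fold change of 1.20 (SE 0.52, adjusted p = 0.246 in limma) at no more than 27.2 normalised counts in any heart.

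**Figure D5:**
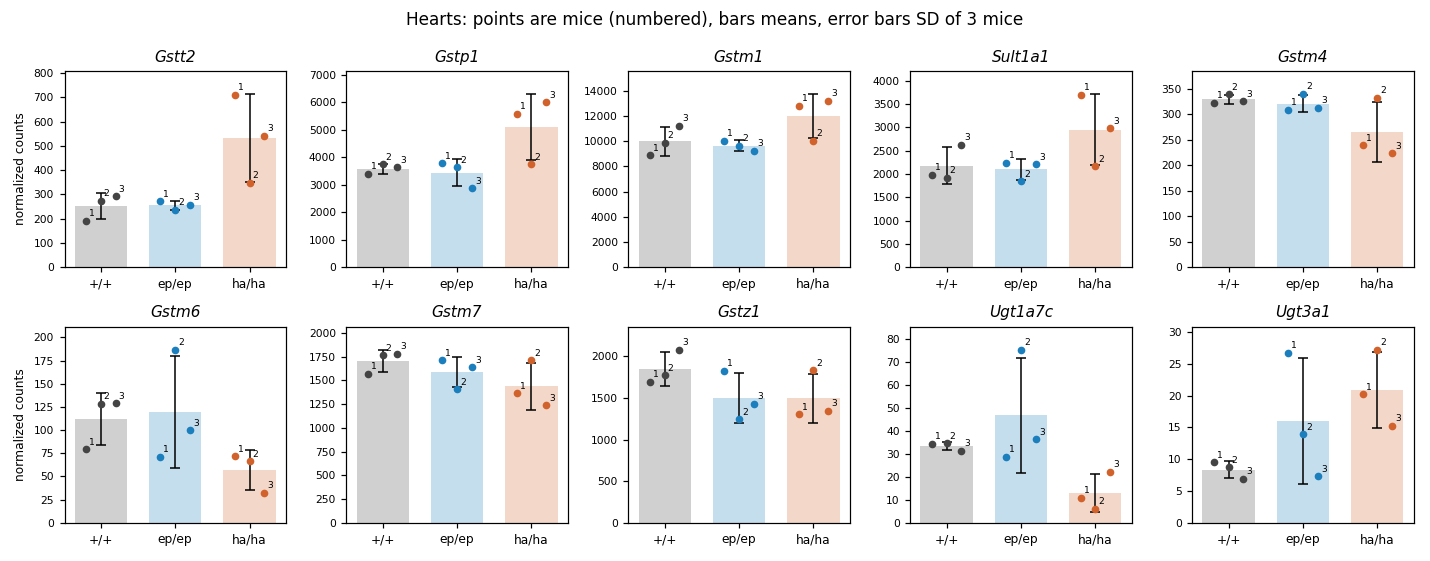
Normalised counts of 10 members in the hearts of 3 Mrps12+/+, 3 Mrps12ep/ep and 3 Mrps12ha/ha mice; points are mice with their number, bars the mean and error bars the SD. Gstt2 is highest in the 3 Mrps12ha/ha hearts, and for Gstp1, Gstm1, Sult1a1, Gstm4, Gstm7 and Gstz1 Mrps12ha/ha mouse 2 lies among or next to the wild-type points.

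In Mrps12ep/ep hearts no member stood apart from wild type. None of 32 members passed the adjusted threshold in limma (0% of all genes did) or in limma-voom, none had an unadjusted p under 0.05 (1.69% of all genes), and in none did the 3 hearts lie all above or all below (shares of all genes 4.40% and 3.64%). The 19 GST genes had log2 fold changes between -0.35 and 0.13. The 10 UGT genes ranged from -2.95 to 0.70 with a median of -2.29, the lowest values being those of genes that were near 0 in Mrps12ep/ep hearts 2 and 3 and high in heart 1. Without heart 1, in which the hepatocyte markers were high, 9 members lay below wild type (11.7% of all genes) and 9 had an unadjusted p under 0.05 (3.24% of all genes).

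Between the mutants 1 heart member lay higher in all Mrps12ha/ha than in all Mrps12ep/ep mice (Gstt2, 1.0, SE 0.26, adjusted p = 0.234 in limma; 8.77% of all genes) and 3 lay lower (Ugt1a7c, Gstm2 and Gstm5; 7.82%). Gstm2 and Gstm5 differed by little, Gstm2 having 4855, 4694 and 4754 normalised counts in Mrps12ep/ep and 4328, 4524 and 4380.3 in Mrps12ha/ha hearts. Gstm5 had 1366, 1387 and 1353 against 1301, 1350.0 and 1311. No member passed the adjusted threshold in limma (0.0249% of all genes did), and 5 had an unadjusted p under 0.05, against 17.9%. The calls again changed with the fit: limma-voom with quality weights called 8 members (against 34.5% of all genes) and limma without Mrps12ha/ha heart 2 called 5 (against 23.2%). Gstp2, with 676, 189 and 365 against 256, 335 and 127, was among the 8 and shares most of its sequence with Gstp1.

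The promoters of Gsta3 and Gstp1 are shown as those of a pair of abundant liver GST genes, taken from RefSeq as above on GRCm38.p6 at chr1:21240335-21240634 (plus strand) and chr19:4037863-4038162 (minus strand). In Gsta3 capitals mark TGACNNNGC on either strand, the core of the antioxidant response element that NRF2 binds, and GTTAAT as above. In Gstp1 they mark GCGTG.
Gsta3: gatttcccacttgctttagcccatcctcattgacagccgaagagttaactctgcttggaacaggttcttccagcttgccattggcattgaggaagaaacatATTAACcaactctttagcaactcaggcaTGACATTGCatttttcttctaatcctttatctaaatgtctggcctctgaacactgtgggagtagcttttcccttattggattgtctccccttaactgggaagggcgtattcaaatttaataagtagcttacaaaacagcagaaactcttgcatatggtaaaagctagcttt
Gstp1: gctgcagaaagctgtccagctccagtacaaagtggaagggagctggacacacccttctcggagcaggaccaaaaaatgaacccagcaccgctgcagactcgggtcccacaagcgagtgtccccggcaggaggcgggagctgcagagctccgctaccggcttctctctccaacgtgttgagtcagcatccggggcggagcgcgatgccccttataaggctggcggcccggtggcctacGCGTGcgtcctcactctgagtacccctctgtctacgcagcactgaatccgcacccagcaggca
TGACNNNGC was found in 12.4% of all promoters and in 3 of 67 member promoters, those of Gsta3, Gstm5 and Gstm7. In the livers Gsta3 and Gstm7 had log2 fold changes of 0.48 and 0.36 in Mrps12ha/ha and of 0.36 and 0.49 in Mrps12ep/ep mice, and Gstm5 of -0.28 and -0.37. None passed the adjusted threshold in limma, and without Mrps12+/+ mouse 3 the values of Gstm7 were 0.01 and 0.13.

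The genes that supply and serve these enzymes were followed in 8 lists of 5 to 14 genes, and no gene of any list passed the adjusted threshold in limma in any comparison with all mice. In the liver Ugp2, which makes UDP-glucose ahead of UDP-glucuronic acid, had 17842, 21196 and 10544 normalised counts in Mrps12+/+, 22116, 29094 and 24638 in Mrps12ep/ep and 29362.5, 34295 and 32807 in Mrps12ha/ha mice. The 3 genotypes did not overlap (1.02 for Mrps12ha/ha against Mrps12+/+, SE 0.23, adjusted p = 0.134, and 0.66 for Mrps12ep/ep, SE 0.23, adjusted p = 0.456, limma). Papss2, which makes PAPS, had 5758, 5720.2 and 3136 in Mrps12+/+, 8039, 6290.2 and 9597 in Mrps12ep/ep and 9089, 7676.5 and 8069 in Mrps12ha/ha livers (0.74 and 0.82 for the mutants against Mrps12+/+, adjusted p = 0.439 and 0.198 in limma). Both mutants lay above wild type, in which mouse 3 was again lowest, and without it the values were 0.37 and 0.72 for Ugp2 and 0.45 and 0.52 for Papss2 in Mrps12ep/ep and Mrps12ha/ha livers. Ugp2 was the only gene of 5 tested for UDP-glucuronic acid supply that lay above wild type in both mutants, and Papss2 the only gene of 8 for sulfate and PAPS supply. In Mrps12ha/ha livers Slc35b1 and Slc35d1 of the first list lay below wild type, and Slc26a1 of the second above it. Of all genes 10.0% lay above and 9.81% below wild type in Mrps12ha/ha livers, and 6.49% and 6.28% in Mrps12ep/ep livers. The list medians were -0.18 and 0.23 in Mrps12ep/ep and -0.36 and 0.13 in Mrps12ha/ha livers.

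Of 12 tested genes of glutathione supply in the liver 1 lay above and 3 below wild type in all Mrps12ha/ha mice (shares of all genes 10.0% and 9.81%), and 3 above and 0 below in all Mrps12ep/ep mice (6.49% and 6.28%), with medians of -0.05 and 0.20. The 7 tested membrane-bound and other glutathione transferases had liver medians of -0.21 and -0.15. Of 6 export pumps of conjugates Abcc6 lay above wild type in both mutants (0.51 in Mrps12ha/ha, SE 0.12, adjusted p = 0.134 in limma) and the others overlapped (10.0% of all genes lay above in Mrps12ha/ha and 6.49% in Mrps12ep/ep livers). Of 11 other conjugating enzymes tested 2 lay above and 1 below wild type in Mrps12ha/ha livers (10.0% and 9.81% of all genes). Inmt, an indole N-methyltransferase, had 10725, 13291 and 5291 normalised counts in Mrps12+/+, 24518, 19669.9 and 24107.5 in Mrps12ep/ep and 22675, 31585 and 29874 in Mrps12ha/ha livers (1.32 and 1.61, adjusted p = 0.33 and 0.106 in limma), and without Mrps12+/+ mouse 3 it passed the threshold in Mrps12ha/ha livers with 1.22 (adjusted p = 0.0256 in limma).

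Among 12 tested regulators of these genes in the liver Ahr, the receptor for dioxin-like compounds, had 2429.8, 2194 and 5057 normalised counts in Mrps12+/+, 1638, 1831.5 and 1993 in Mrps12ep/ep and 1280.5, 1015 and 1102 in Mrps12ha/ha mice. Wild-type mouse 3 was the highest, and both mutants lay below wild type (-0.72 and -1.41, adjusted p = 0.47 and 0.111 in limma). Without that mouse the values were -0.35 and -1.03, and the second passed the threshold (adjusted p = 0.016 in limma). In the hearts Ahr was at 162, 189.5 and 169.8 in Mrps12+/+ and 565, 338 and 379 in Mrps12ha/ha mice (1.26, SE 0.26, adjusted p = 0.17 in limma), without overlap and in the opposite direction. Nfe2l2, which encodes NRF2, had 4119, 3661 and 3462.5 in Mrps12+/+ against 4824, 4426 and 5001 in Mrps12ha/ha livers (log2 fold change 0.34, adjusted p = 0.261 in limma). In the hearts it had 4202, 4296 and 4792 against 2953, 3751 and 3313 (-0.41, adjusted p = 0.194 in limma), and the genotypes did not overlap in either tissue. Of 12 tested NRF2 targets outside the UGT, SULT and GST families 1 lay above and 1 below wild type in Mrps12ha/ha livers (shares of all genes 10.0% and 9.81%), and 0 above and 2 below in Mrps12ha/ha hearts (11.1% and 10.0%), with medians of -0.02 and -0.16.

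Members differed in how much wild-type mice varied among themselves. This is only a part of the spread in the fit, which was estimated over all 9 samples of a tissue. In Mrps12+/+ livers the coefficient of variation was 11.2% for Gstz1, 15.7% for Ugt2b36 and 2.06% for Ugt1a6b, but 89% for Gsta2, 70.6% for Sult2a7 and 49% for Ugt1a9. In Mrps12+/+ hearts it was 6.35% for Gstm2, 5.02% for Gstp1 and 2.64% for Gstm4, but 111% for Ugt1a1 and 88.9% for Sult2a8. The mutants could vary more or less than wild type. In Mrps12ha/ha hearts the SD was 1200 for Gstp1 and 58.8 for Gstm4, against 180 and 8.7 in Mrps12+/+ hearts. For Gstm2 it was 102 against 302.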

How the data were processed

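Per the labels and methods, total RNA of hearts and livers was sequenced, reads were trimmed and checked (Trim Galore 0.4.1, cutadapt 1.18, FastQC 0.11.8), quantified with Salmon 1.1.0 on GENCODE vM21 transcripts, and normalised in DESeq2. The values used here are the normalised counts deposited by the authors, 1 table per tissue, with each column taken as the pool of 3 technical libraries of 1 mouse. The 4 deposited comparison tables hold the authors' fold changes and p-values and were not used.

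The 64 genes were taken by name and protein-coding type. Genes with a mean of at least 10 normalised counts in a tissue were tested on log2(normalised count + 1), so that fold changes of low genes are understated, with limma 3.58.1 in R 4.3.3 on the 9 samples of a tissue. P-values were adjusted over all tested genes by the Benjamini-Hochberg method with a threshold of 0.05, and the fit was tested on simulated data. Only low values above 0, 7452 to 9159 per column, were checked for being whole multiples of what 1 read is worth. Of these 99.6% to 100% were so (tolerance 0.051 normalised counts), and the worth of 1 read gave the reads per library and the CPM. The alternatives comprised other pseudocounts (0.1 and 8), other minima, quantile normalisation, robust variance, weights, limma-voom on the recovered reads, the replicate block and leaving out each mouse. Nothing in the labels gives an order or a shared origin to the replicate numbers, and p-values measure the spread between these mice only.

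Genes named with values were those past the threshold in limma or limma-voom, up to 4 in each direction per comparison with the largest change among those without overlap, the 3 highest per kilobase of each family and tissue, and a fixed panel. Genes and lists were chosen with earlier results of these data known. Sharing of sequence was computed on 31-base words of the coding genes' reference transcripts, and promoters were read from the RefSeq table of GRCm38.p6, which held 67 promoters of 56 members. Those of Gsta4, Gstt2, Ugt1a6b, Ugt3a2, Sult2a1, Sult2a2, Sult2a7 and Sult4a1 are not shown. Tables and figures were made with Python 3.11.15, pandas 2.3.3, numpy 2.4.6, scipy 1.17.1 and matplotlib 3.10.9.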

Additional observations from a re-analysis of the deposited data

Results flagged for a closer look

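In 2 of the 31 members tested in both tissues every Mrps12ha/ha sample moved away from wild type in opposite directions in heart and liver. Of all tested genes 10.0% lay below wild type in the Mrps12ha/ha hearts and 10.0% above it in the Mrps12ha/ha livers. Each of these shares is for 1 tissue and 1 direction. The share of all genes that moved in opposite directions in the 2 tissues was not computed. Whether 2 of 31 members is more than among all genes therefore cannot be said. Gstm6 had a log2 fold change of -1.01 in the heart and of 0.44 in the liver, and Ugt1a7c of -1.47 in the heart and of 0.70 in the liver, each without overlap between the 3 Mrps12ha/ha and the 3 Mrps12+/+ mice. The difference between the tissues was not tested, because hearts and livers were normalised separately. In limma none of the 4 values passed the adjusted threshold (adjusted p between 0.213 and 0.403). Gstm6 in the heart passed it with array weights in limma (-1.46, adjusted p = 0.0113) and in limma-voom (-1.54, adjusted p = 0.0162). In these 2 fits 34.7% and 33.9% of all genes passed. Ugt1a7c shares 69.5% of its transcript words with other genes and Gstm6 17.2%. In the Mrps12ha/ha hearts Ugt1a7c had at most 22.1 normalised counts, which are few reads in hearts 1 and 2.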

How the results depend on the processing

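Of 66 log2 fold changes of genes given above, each under up to 16 alternatives, 993 values stayed on the same side of the threshold, 54 passed it where the result above did not, and 5 changed direction, all of Gstm3 in the liver. For Mrps12ha/ha against Mrps12+/+ it was 0.10 with array weights, 0.18 with limma-voom and -0.38 to 0.40 with 1 mouse left out (0.32 without Mrps12+/+ mouse 1, 0.40 without Mrps12ha/ha mouse 2). For Mrps12ep/ep it was -0.02 to 0.55 with 1 mouse left out, the lowest without Mrps12+/+ mouse 3, and none passed the threshold. The number of members past the threshold was 0 in all 6 comparisons with all mice in limma. In the hearts it was 9 of 32 with array weights and 7 with limma-voom for Mrps12ha/ha against Mrps12+/+ (34.7% and 33.9% of all genes). For Mrps12ha/ha against Mrps12ep/ep it was 9 and 8 (39.3% and 34.5% of all genes). Leaving out 1 mouse gave 0 to 6 members in the first and 0 to 5 in the second. The highest values were those without Mrps12ha/ha heart 2 (against 27% and 23.2% of all genes). In the livers leaving out 1 mouse gave 0 to 1 members for Mrps12ep/ep against Mrps12+/+ and 0 in the other comparisons. The 1 was Gsta4 without Mrps12+/+ mouse 1 (against 0.17% of all genes). The cause was not tested. Per kilobase of coding length the share of normalised counts was 0.164% for GST genes in the heart, 0.204% for UGT genes and 0.908% for GST genes in the liver. With the replicate number as a block the count was 0 in every comparison. The labels do not pair the mice by number, and whether the numbers do so was not settled. The correlation of same-numbered deviations between Mrps12ep/ep and Mrps12+/+ was 0.578, 0.409 and -0.07 in the hearts and 0.164, 0.128 and -0.074 in the livers. Between Mrps12ep/ep heart 2 and Mrps12+/+ heart 3 it was 0.345. Same-numbered Mrps12ha/ha and Mrps12+/+ hearts had -0.023, -0.115 and 0.089. The planned count models of edgeR and DESeq2 were not run, and limma-voom on the recovered reads was used in their place. With 3 mice a group an exact permutation test cannot go below p = 0.1.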
